A study of Mus musculus with 6 samples.

Results

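The genes described here encode the motors that pull cargo along microtubules: the kinesin heavy chains (Kif genes), the kinesin light chains (Klc), the subunits of cytoplasmic dynein (Dync, Dynll, Dynlt and Dynlrb) and those of dynactin (Dctn), the complex that ties dynein to its cargo. The rule for choosing them uses the gene symbol and a minimum of reads, and no comparison between the groups. A total of 64 of the 55335 genes in the count table had such a symbol, and the 57 with 10 or more reads in 3 or more libraries were kept. The other 7 were Kif2b and Kif12, with no read in any library, Kif2c, Kif14, Kif18b and Kif23, which act in dividing cells, and Kif28.

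Mouse retinas were homogenised, RNA was captured on beads through an antibody to the HA tag, and the captured RNA was sequenced as a profile of retinal ganglion cells, which send their axons through the optic nerve. The SOHU group had silicone oil in the anterior chamber of the eye, a model of raised eye pressure and glaucoma, for 1 week before the retinas were taken, and the naive group is labelled only as naive. Both groups are given as C57BL/6 mice of wild type genotype aged 10 weeks, with 3 libraries each. The HA tag marks the captured material, but the labels used here do not name the protein that carried it or how it reached the cells, and nothing in them ties each library to an animal of its own, so p-values reflect only how far these libraries spread, which may be technical.

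Ganglion cell axons leave the eye and run to the brain, so most of what the axon and its endings need is carried there. Kinesins mostly walk towards the plus ends of microtubules, which point away from the cell body in axons, and so carry vesicles, mitochondria and cytoskeletal proteins outward. Cytoplasmic dynein, with dynactin, walks the other way and brings signals, endosomes and worn organelles back to the cell body. Raised eye pressure is known to slow both directions of transport at the optic nerve head.

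Library sizes were 21691354 to 26824919 counted reads, and 17687 genes were tested. In edgeR's quasi-likelihood test 13.9% of them had a Benjamini-Hochberg adjusted p under 0.05, 8.02% higher and 5.93% lower in SOHU. Those calls rest on all 6 libraries: without naive replicate 1 or naive replicate 3, edgeR called 0 genes, with 3919 and 4251 genes at an unadjusted p under 0.05. The captured RNA also held markers of other retinal cells. A list of 20 ganglion cell markers, all detected, held 0.235, 0.226 and 0.331% of the reads in SOHU libraries 1 to 3, against 0.744, 0.466 and 0.549% in naive libraries 1 to 3, and 18 of the 20 were called lower in SOHU. The 16 markers of Müller glia and astrocytes, also all detected, held 5.03, 3.53 and 2.80% in SOHU and 1.37, 1.91 and 1.69% in naive libraries, with 11 called higher. Amacrine and horizontal cell markers held 0.217 to 0.315% in SOHU and 0.453 to 0.508% in naive libraries (5 of 14 lower), and rod markers 0.619 to 0.896% and 0.661 to 0.789% (0 of 14 called). Microglia and vascular markers had 6 of 13 and 3 of 8 tested genes higher and none lower, bipolar cell markers 1 of 12 higher and 1 lower, and cone markers 0 of 10 called. Fewer ganglion cells in the captured material, less RNA per ganglion cell and other sources of these marker shares cannot be told apart here. A motor gene cannot be assigned to one cell type from these counts.

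Motor genes were called lower in SOHU more often than higher after TMM scaling, and not when libraries were scaled to ganglion cell markers. Of the 57, 10 fell (17.5%, beside 5.93% of all genes) and 2 rose (3.51%, beside 8.02%), with a median log2 fold change of -0.09 for the 57 and 0.014 for all genes tested. The genes that fell were Kif5a, Kif5c, Klc1, Klc2, Kif3a, Kif3c, Kif21a, Dync1i1, Dync1li1 and Dctn1, and those that rose were Dynlt1b and Dynlt1f. Scaling to ganglion cell markers in place of TMM moved the median of all genes to 1.06. In that setting none of the 57 was called lower and 38 were called higher, beside 2 lower and 12004 higher of all 17687 genes. Values from that scaling are given below as log2 fold changes against ganglion cell markers. Without 1 library at a time, 0 to 11 members were called lower and 0 to 4 higher: 6 and 2 without SOHU replicate 1, 1 and 2 without SOHU replicate 2, 11 and 4 without SOHU replicate 3, 3 and 0 without naive replicate 2, and 0 and 0 without naive replicate 1 or naive replicate 3. Without naive replicate 1, 15 of the 57 had an unadjusted p under 0.05 in edgeR, beside 3919 of all 18198 genes tested. Without naive replicate 3, 16 of the 57 did, beside 4251 of all 18320. Each of the 12 called genes kept its direction in all 6 omissions. That could hardly come out otherwise, since the groups did not overlap in any of the 12, and it is no separate support. The groups did not overlap in 16 members lower in SOHU (28.1%, beside 19.7% of all genes) and in 7 members higher in SOHU (12.3%, beside 19.3%).

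**Figure D1:**
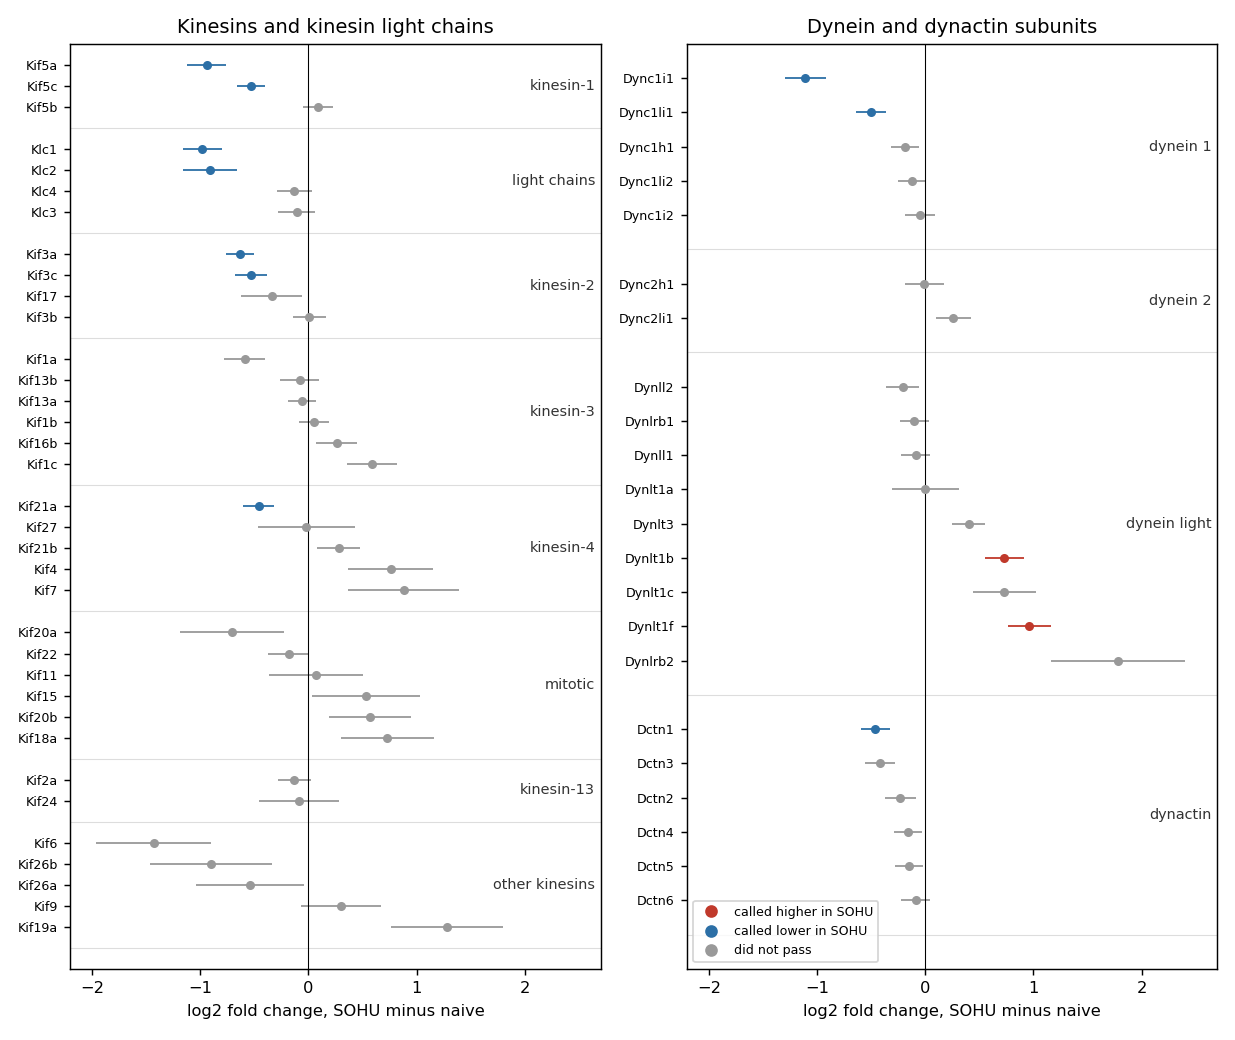
Log2 fold change (SOHU minus naive, x axis, after TMM scaling) of the 57 motor genes by class, with bars of 1 standard error. The 10 genes called lower are Kif5a, Kif5c, Klc1, Klc2, Kif3a, Kif3c, Kif21a, Dync1i1, Dync1li1 and Dctn1, and the 2 called higher are Dynlt1b and Dynlt1f; none of the 10 is called lower when libraries are scaled to ganglion cell markers.

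The motor genes together held 0.474, 0.530 and 0.595% of the reads in SOHU libraries 1 to 3 and 0.721, 0.646 and 0.673% in naive libraries 1 to 3. No SOHU library reached the lowest naive library (exact permutation test, two-sided, p = 0.1, the smallest that 3 against 3 allow). Genes with many reads weigh most in this sum. Klc1 alone held 12363, 14150 and 19697 of the 120983, 114861 and 140933 motor reads in SOHU libraries 1 to 3. In naive libraries 1 to 3 it held 36761, 26952 and 28440 of 193337, 149646 and 150020. The order within a group ran alongside that of the ganglion cell markers at the top: SOHU replicate 3 was the highest SOHU library in 9 of the 10 genes that fell, and naive replicate 1 the highest naive library in 8 of them. These same 2 libraries had the highest ganglion cell marker share of their groups. They also stood out over all genes tested. On the first principal component (51.9% of the variance), SOHU replicate 3 lay nearest the naive libraries (-9.88) and naive replicate 1 farthest from SOHU (63.3). The 10 genes were picked as lower in these same libraries and the order was not counted for other genes. It is therefore not shown to be particular to motor genes. The part of cell makeup in the motor values was not tested.

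**Figure D2:**
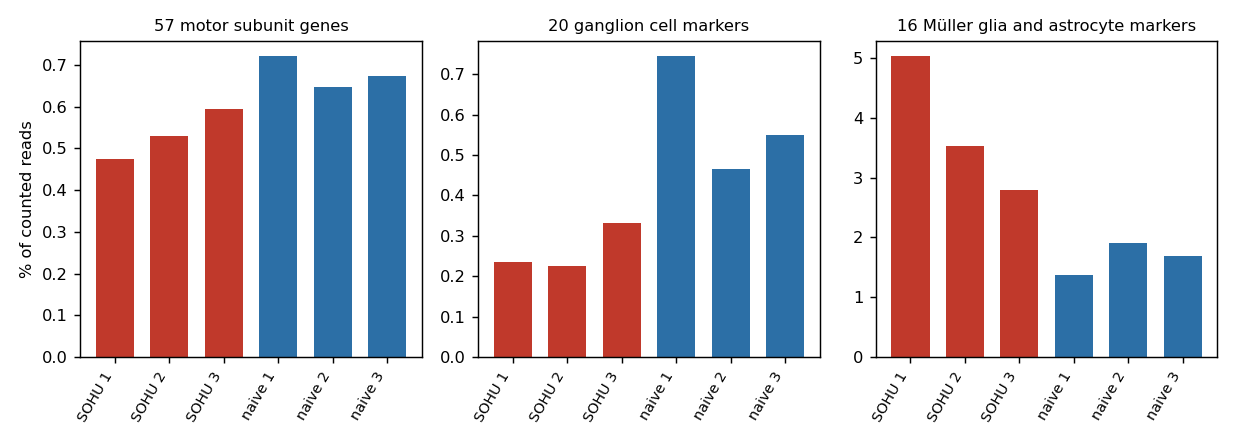
Percent of counted reads (y axis) in each library held by the 57 motor genes, the 20 ganglion cell markers and the 16 markers of Müller glia and astrocytes. SOHU libraries hold 0.474 to 0.595% motor reads, below the 0.646 to 0.721% of the naive libraries, while their glial share of 2.80 to 5.03% is above the 1.37 to 1.91% of the naive libraries.

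Levels between genes are compared below as CPM per kilobase of exon (CPM/kb), that is, counts brought to a common library size with TMM factors and divided by exon length. By the mean over all 6 libraries, the most abundant of the 57 was Dynlrb1 and the rarest Kif15, with 517 and 0.0816 CPM/kb on average in SOHU and 553.2 and 0.0562 CPM/kb in naive libraries. The 10 genes that fell and the 2 that rose all lay among the 40 members with a mean of 1 CPM/kb or more, and none of the 17 below that passed.

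Kinesin-1 is the main motor for outward transport of mitochondria, vesicle precursors and, more slowly, neurofilaments, and it pairs heavy chains of the Kif5 genes with light chains of the Klc genes that bind cargo. Of its 3 heavy chains, Kif5a and Kif5c, the forms found mostly in neurons, fell, and the widely expressed Kif5b did not pass. Kif5a (ENSMUSG00000074657.5, mm10 chromosome 10, 127225696 to 127263348, minus strand) had 10.6, 10.2 and 14.4 CPM/kb in SOHU libraries 1 to 3, against 27.1, 19.2 and 21.1 CPM/kb in naive libraries 1 to 3. Every SOHU library was below every naive library, by a fitted 1.92-fold (log2 fold change -0.94, SE 0.18, adjusted p = 0.0155). Kif5c (ENSMUSG00000026764.15, mm10 chromosome 2, 49619298 to 49774778, plus strand) was the most abundant heavy chain, with 32.6, 38.5 and 38.9 CPM/kb in SOHU and 58.2, 51.3 and 49.2 CPM/kb in naive libraries. It fell 1.44-fold (-0.53, SE 0.13, adjusted p = 0.0315), again with no overlap. Kif5b had 26.9, 33.1 and 30.8 CPM/kb in SOHU and 31.4, 28.9 and 25.3 CPM/kb in naive libraries. Its groups overlapped, and its log2 fold change was 0.09 (SE 0.14, adjusted p = 0.709). In libraries scaled to ganglion cell markers, log2 fold changes were 0.10 for Kif5a, 0.52 for Kif5c and 1.14 for Kif5b, beside 1.06 for all genes.

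The makeup of the kinesin-1 heavy chain RNA did not overlap between the groups, a comparison within each library that no library scaling can change. It can still differ with the mix of cells in the captured RNA, and the part of that mix was not tested. Kif5b made up 38.4, 40.5 and 36.6% of the summed heavy chain level per kilobase in SOHU libraries 1 to 3 and 26.9, 29.1 and 26.5% in naive libraries 1 to 3. Kif5a made up 14.9 ± 2.34% in SOHU and 21.5 ± 1.99% in naive libraries, and Kif5c 46.6 ± 0.402% and 51.0 ± 0.950% (SD, n = 3 each). In log2 terms the ratio of Kif5a to Kif5b was -1.35, -1.71 and -1.10 in SOHU and -0.21, -0.59 and -0.26 in naive libraries, a difference of -1.03. The ratio of Kif5c to Kif5b differed by -0.62 and that of Kif5a to Kif5c by -0.41, and neither overlapped between the groups. Each of these 3 differences had p = 0.1 in the exact two-sided permutation test, the smallest possible, and 0.157 adjusted over the 11 pairs of related subunits that were compared. The 3 ratios share genes, so they are not independent results.

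Among the light chains, Klc1 and Klc2 fell and Klc3 and Klc4 did not pass. Klc1 (ENSMUSG00000021288.19, mm10 chromosome 12, 111758849 to 111807844, plus strand), the main light chain of neurons, was by far the most abundant of the 4, with 80.8, 99.8 and 126.0 CPM/kb in SOHU and 222.7, 182.2 and 197.9 CPM/kb in naive libraries. The highest SOHU library was well under the lowest naive library, and the fall was 1.97-fold (-0.98, SE 0.18, adjusted p = 0.0143). Klc2 had 1.51, 1.62 and 2.59 CPM/kb in SOHU and 3.14, 3.25 and 4.39 CPM/kb in naive libraries (-0.91, SE 0.25, adjusted p = 0.0420), also without overlap. Klc4 had 30.0, 19.9 and 23.7 CPM/kb in SOHU and 27.7, 26.5 and 26.0 CPM/kb in naive libraries, and Klc3 12.2, 9.06 and 12.1 CPM/kb and 10.6, 12.5 and 12.9 CPM/kb. Both overlapped between the groups (log2 fold changes -0.13 and -0.11). Klc3 shares 28.1% of its exon bases with Ercc2 on the other strand, which reached 14.6% of its reads, and the strand setting of the counting is not given in the sources used here. The ratio of Klc1 to Klc2 overlapped (difference -0.05, exact permutation p = 0.9). Klc1 made up 64.9, 76.6 and 76.6% of the light chain level in SOHU and 84.3, 81.2 and 82.0% in naive libraries. Summed over each family, light chain RNA exceeded heavy chain RNA per kilobase 1.78, 1.59 and 1.96 times in SOHU and 2.26, 2.26 and 2.52 times in naive libraries (exact permutation p = 0.1). With libraries scaled to ganglion cell markers, Klc1 and Klc2 had log2 fold changes of 0.05 and 0.06, and Klc3 and Klc4 of 0.91 and 0.93.

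**Figure D3:**
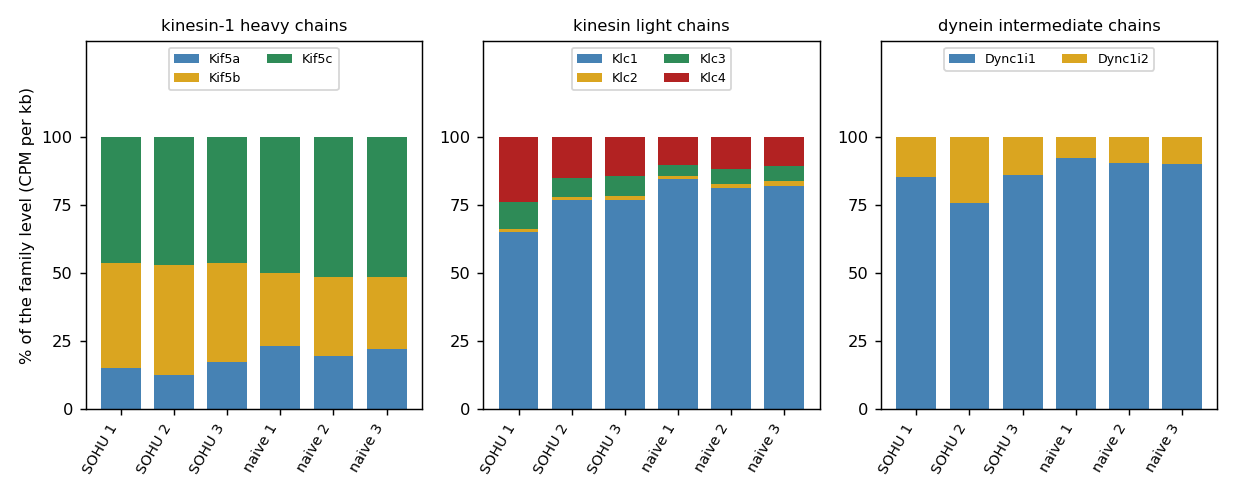
Share of each gene (y axis, percent of the summed CPM per kilobase of its family) in each library, for the kinesin-1 heavy chains, the kinesin light chains and the dynein intermediate chains. Kif5b, Klc4 and Dync1i2 take larger shares in SOHU libraries, as in the 36.6 to 40.5% of Kif5b beside 26.5 to 29.1% in naive libraries.

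Kinesin-2 motors carry cargo in axons and build cilia, and Kif3a pairs with Kif3b or Kif3c. Kif3a and Kif3c fell, Kif3b and the ciliary and dendritic motor Kif17 did not pass, and the class median was -0.43 (0.58 against ganglion cell markers). Kif3a (ENSMUSG00000018395.19, mm10 chromosome 11, 53567379 to 53601967, plus strand) had 41.6, 41.9 and 49.6 CPM/kb in SOHU and 75.4, 68.4 and 62.6 CPM/kb in naive libraries, with no overlap and a fall of 1.55-fold (-0.63, SE 0.13, adjusted p = 0.0188). Kif3c, the neuronal partner, had 5.81, 4.50 and 5.97 CPM/kb in SOHU and 8.54, 7.37 and 7.59 CPM/kb in naive libraries (-0.53, SE 0.15, adjusted p = 0.0476; 0.0523 with the filter of 10 reads in 3 libraries). The ratio of Kif3c to Kif3a overlapped between the groups (difference 0.10, exact permutation p = 0.7). Part of the Kif3c signal is uncertain, since 35.3% of its exon bases lie opposite 1110002L01Rik, which reached 25.9% of its reads. Kif3b had 6.36, 7.23 and 5.60 CPM/kb in SOHU and 6.79, 5.71 and 6.52 CPM/kb in naive libraries (0.01, SE 0.15). Its groups lay on top of each other, and its share of the 3 Kif3 genes was 11.5 ± 2.18% in SOHU and 7.67 ± 0.765% in naive libraries (SD, n = 3 each). Kif17 had 0.731 ± 0.230 CPM/kb in SOHU and 0.924 ± 0.0294 CPM/kb in naive libraries, and shares a few exon bases with the more abundant Sh2d5. Kifap3, the subunit that joins Kif3 motors to cargo and falls outside the symbol rule, fell 1.54-fold (-0.62, SE 0.15, adjusted p = 0.0274).

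Kinesin-3 motors carry synaptic vesicle precursors and dense-core vesicles. None of the 6 kept genes passed, and the class median was 0.00 (1.03 against ganglion cell markers, where all genes had 1.06). Kif1a, the principal vesicle motor of neurons and the most abundant of them, had 41.6, 35.3 and 57.8 CPM/kb in SOHU and 77.0, 63.5 and 62.2 CPM/kb in naive libraries. Its groups did not overlap, with SOHU replicate 3 close to the naive range, but it missed the threshold (-0.59, SE 0.19, adjusted p = 0.0661; 0.0224 in DESeq2). Kif1b, which carries mitochondria and vesicles, had 12.8, 17.0 and 17.0 CPM/kb in SOHU and 14.7, 14.6 and 15.6 CPM/kb in naive libraries (0.05, SE 0.14). The log2 ratio of Kif1a to Kif1b was 1.70, 1.05 and 1.77 in SOHU and 2.39, 2.12 and 1.99 in naive libraries, a difference of -0.66 without overlap (exact permutation p = 0.1, 0.157 adjusted over the 11 pairs). Kif13a had 7.57, 8.75 and 8.63 CPM/kb in SOHU and 8.35, 8.90 and 8.74 CPM/kb in naive libraries, and Kif13b 0.606, 0.706 and 0.615 CPM/kb and 0.680, 0.647 and 0.707 CPM/kb. Neither they nor their ratio (difference 0.02) separated the groups. Kif1c, a widely expressed member, had 1.25 ± 0.289 CPM/kb in SOHU and 0.831 ± 0.0687 CPM/kb in naive libraries (0.59, adjusted p = 0.109), and the endosomal motor Kif16b 1.96 ± 0.282 and 1.63 ± 0.269 CPM/kb (SD, n = 3 each).

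**Figure D4:**
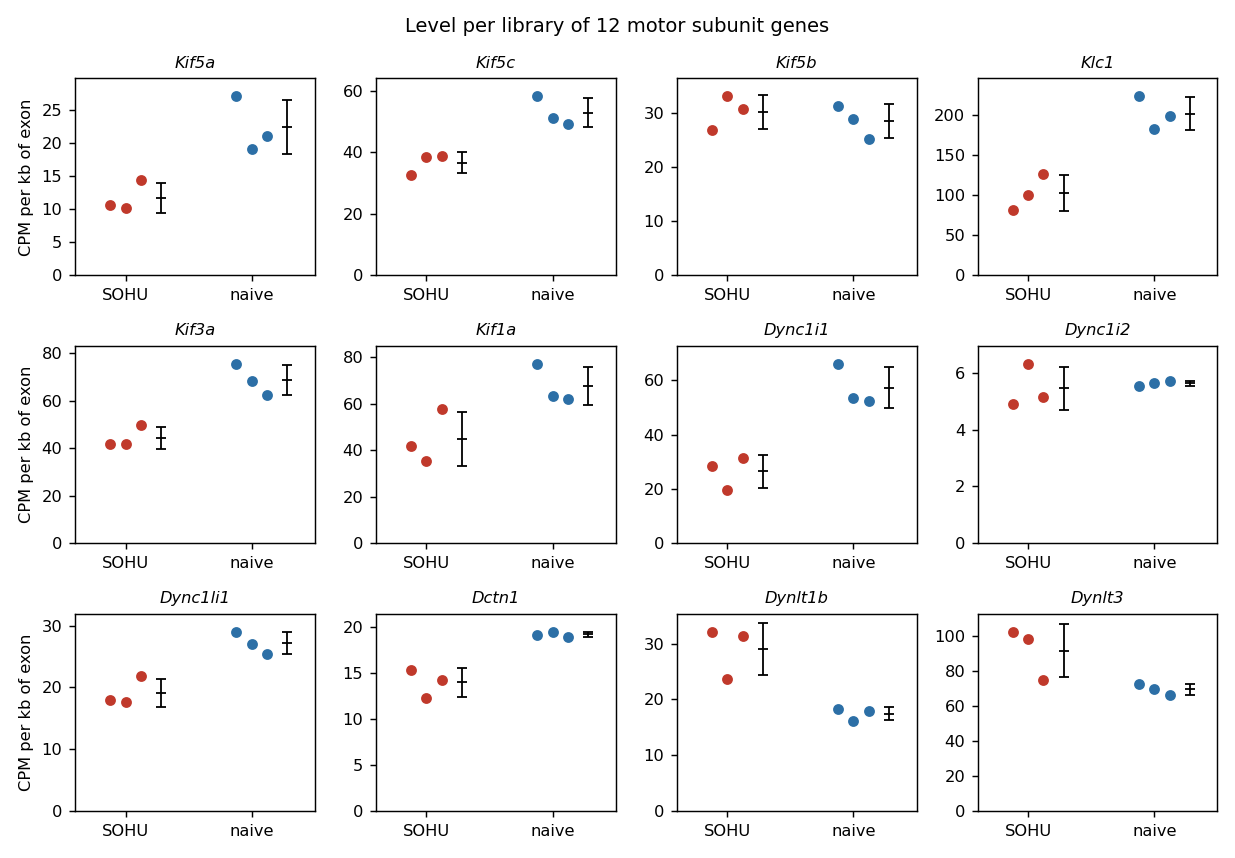
Level of 12 motor genes in each library (points, CPM per kilobase of exon on the y axis after TMM scaling; bars give the mean and SD of 3 libraries). Kif5a, Klc1, Dync1i1 and Kif3a in SOHU lie below all naive libraries, Kif5b and Dync1i2 overlap, and Dynlt1b and Dynlt3 in SOHU lie above all naive libraries; scaled to ganglion cell markers, Kif5a and Klc1 have log2 fold changes of 0.10 and 0.05, Kif3a of 0.40 and Dync1i1 of -0.07.

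In the kinesin-4 class, whose Kif21 members act on microtubule growth in neurons, Kif21a fell and Kif21b did not pass. Kif21a had 24.9, 29.8 and 32.1 CPM/kb in SOHU and 42.7, 38.2 and 38.6 CPM/kb in naive libraries, a fall of 1.38-fold that just passed (-0.46, SE 0.14, adjusted p = 0.0499) and did not pass with RLE scaling (0.0507) or the filter of 10 reads in 3 libraries (0.0539). Kif21b had 2.26, 3.54 and 3.55 CPM/kb in SOHU and 2.47, 2.33 and 2.91 CPM/kb in naive libraries (0.28, SE 0.20, adjusted p = 0.367). The log2 ratio of Kif21b to Kif21a was -3.46, -3.07 and -3.18 in SOHU and -4.11, -4.03 and -3.73 in naive libraries, higher in each SOHU library (difference 0.72, exact permutation p = 0.1). The mitotic motor Kif4 had 1.25, 0.488 and 0.501 CPM/kb in SOHU and 0.370, 0.483 and 0.473 CPM/kb in naive libraries, its value in SOHU replicate 1 standing apart. It shares 15.1% of its exon bases with Pdzd11 on the other strand, a gene of 168 CPM beside 3.28 CPM for Kif4, so its reads are uncertain. Kif7, a ciliary regulator of Hedgehog signalling, had 0.451 ± 0.273 CPM/kb in SOHU and 0.245 ± 0.121 CPM/kb in naive libraries, and Kif27 0.138 ± 0.0299 and 0.140 ± 0.0393 CPM/kb (SD, n = 3 each). The class median was 0.28 (1.30 against ganglion cell markers).

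Most motors of cell division were scarce. None of the 6 kept mitotic kinesins passed (median 0.30; 1.31 against ganglion cell markers). Of these only Kif22 exceeded 1 CPM/kb, with 2.36, 2.08 and 2.73 CPM/kb in SOHU and 2.43, 2.66 and 3.06 CPM/kb in naive libraries. Kif18a had 0.444, 0.155 and 0.236 CPM/kb in SOHU and 0.168, 0.118 and 0.216 CPM/kb in naive libraries, and Kif20a 0.125, 0.176 and 0.244 CPM/kb and 0.151, 0.376 and 0.367 CPM/kb. Kif20a reads are uncertain, because 29.3% of its exon bases lie opposite the far more abundant Cdc23. Kif20b, Kif11 and Kif15 had 0.0816 to 0.221 CPM/kb on average in SOHU and 0.0562 to 0.149 CPM/kb in naive libraries. The 16 proliferation markers held 0.00997 to 0.0112% of the reads in SOHU and 0.00988 to 0.0118% in naive libraries, and 0 of the 10 tested passed in edgeR.

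Kinesins that do not walk but shorten microtubules (kinesin-13) also showed no call. Kif2a, which trims axon branches, had 5.92, 6.79 and 8.04 CPM/kb in SOHU and 7.82, 7.09 and 7.78 CPM/kb in naive libraries (-0.13, SE 0.15), with 19.2% of its exon bases opposite Dimt1. Kif24 had 0.145, 0.140 and 0.183 CPM/kb in SOHU and 0.120, 0.204 and 0.177 CPM/kb in naive libraries. Both overlapped between the groups. In the remaining kinesins, all scarce, none of 5 passed and the median was -0.54 (0.48 against ganglion cell markers). Kif26b, a motor-domain protein without motor activity, had 0.0989, 0.607 and 0.691 CPM/kb in SOHU and 1.01, 0.877 and 0.728 CPM/kb in naive libraries. The low SOHU value is that of replicate 1, with 35 reads where the other SOHU libraries had 199 and 250 (-0.90, SE 0.56, adjusted p = 0.309). Kif6 had 6, 14 and 25 reads in SOHU and 63, 30 and 32 reads in naive libraries, all lower in SOHU, and did not pass (-1.43, SE 0.53, adjusted p = 0.0969). Kif19a, a motor of motile cilia, had 0.357, 0.309 and 0.180 CPM/kb in SOHU and 0.151, 0.0528 and 0.141 CPM/kb in naive libraries (1.28, SE 0.52, adjusted p = 0.130). Kif9 had 1.51, 0.866 and 0.775 CPM/kb in SOHU and 0.833, 0.510 and 1.21 CPM/kb in naive libraries, and Kif26a 0.0668 ± 0.0131 and 0.0977 ± 0.0372 CPM/kb (SD, n = 3 each).

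The return motor, cytoplasmic dynein 1, is built on the heavy chain Dync1h1, with intermediate chains that bind dynactin and light intermediate chains that bind cargo adaptors. Of its 5 genes of these kinds, 2 fell, and the class median was -0.19 (0.83 against ganglion cell markers). Dync1i1 (ENSMUSG00000029757.16, mm10 chromosome 6, 5725639 to 6028039, plus strand), the intermediate chain enriched in neurons, had 28.4, 19.6 and 31.4 CPM/kb in SOHU and 66.0, 53.5 and 52.4 CPM/kb in naive libraries. The groups lay far apart, and the fall of 2.17-fold (-1.11, SE 0.19, adjusted p = 0.0119) was the largest among the 12 motor genes called. It is also the 1 of the 10 genes called lower whose log2 fold change stayed negative against ganglion cell markers (-0.07, SE 0.30, adjusted p = 0.829). The other intermediate chain, Dync1i2, expressed in most cell types, had 4.92, 6.32 and 5.15 CPM/kb in SOHU and 5.56, 5.64 and 5.74 CPM/kb in naive libraries, which overlapped (-0.05, SE 0.14, adjusted p = 0.854). The log2 ratio of Dync1i1 to Dync1i2 was 2.53, 1.63 and 2.61 in SOHU and 3.57, 3.25 and 3.19 in naive libraries. Its difference of -1.08 was the largest of the 11 pairs (exact permutation p = 0.1, 0.157 adjusted over the pairs), and Dync1i2 made up 14.8, 24.4 and 14.1% of the intermediate chain level in SOHU, against 7.77, 9.53 and 9.87% in naive libraries.

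Dync1li1 had 18.0, 17.7 and 21.8 CPM/kb in SOHU and 29.0, 27.0 and 25.5 CPM/kb in naive libraries, with no overlap and a fall of 1.42-fold (-0.50, SE 0.14, adjusted p = 0.0390). Dync1li2, the other light intermediate chain, had 16.9, 18.4 and 17.6 CPM/kb in SOHU and 21.2, 19.2 and 16.9 CPM/kb in naive libraries (-0.12, SE 0.13, adjusted p = 0.581). The 2 genes were near each other in SOHU, while Dync1li1 led in naive libraries: their log2 ratio was 0.09, -0.06 and 0.31 in SOHU and 0.45, 0.49 and 0.59 in naive libraries (difference -0.40, exact permutation p = 0.1). The heavy chain Dync1h1, which holds the motor domain, had 4.13 ± 0.146 CPM/kb in SOHU and 4.72 ± 0.372 CPM/kb in naive libraries (SD, n = 3 each). Its groups did not overlap, but the difference was small (-0.19, SE 0.13, adjusted p = 0.328).

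**Figure D5:**
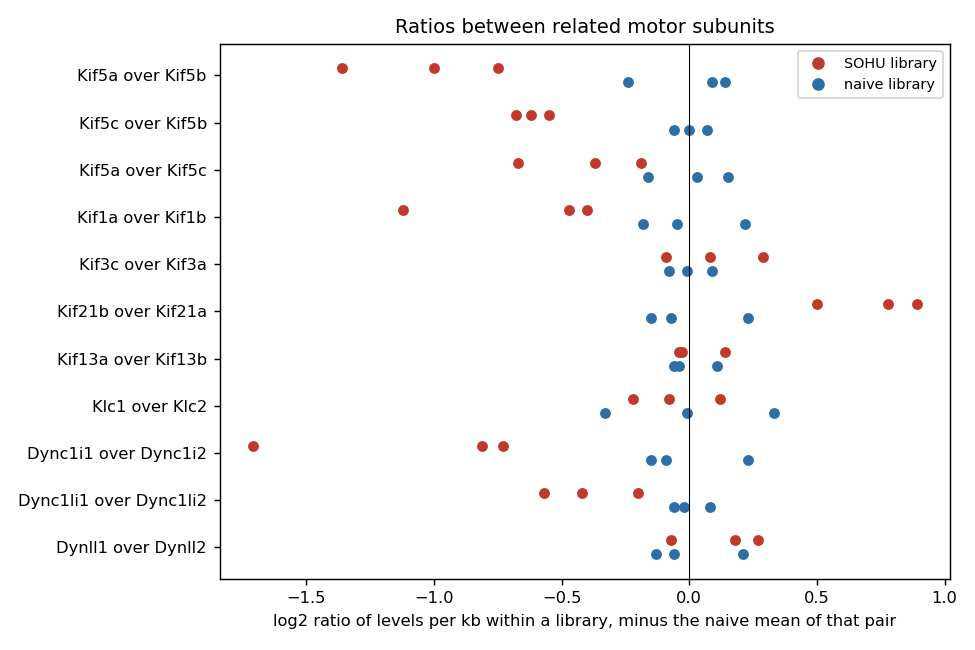
Log2 ratio of the levels per kilobase of 2 related motor genes within each library, minus the naive mean of that pair (x axis), for 11 pairs (y axis; points are libraries). The groups do not overlap in the 7 pairs Kif5a over Kif5b, Kif5c over Kif5b, Kif5a over Kif5c, Kif1a over Kif1b, Kif21b over Kif21a, Dync1i1 over Dync1i2 and Dync1li1 over Dync1li2. Each of these has p = 0.1 in the exact permutation test, the smallest possible, and 0.157 adjusted over the 11 pairs. The 3 Kif5 ratios share genes. Of single genes, 19.7% of all tested are lower and 19.3% higher in SOHU without overlap, and the share of other gene pairs was not counted.

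Of the 9 dynein light chains, small subunits that dynein shares with other complexes, 2 rose and 7 did not pass (class median 0.40; 1.48 against ganglion cell markers). That median counts each of 4 similar Dynlt1 genes, the 2 that rose among them. The summed level of the class was 743.9 ± 8.53 CPM/kb in SOHU and 751.1 ± 75.6 CPM/kb in naive libraries (SD, n = 3 each). The Dynlt1 genes, Dynlt1a, Dynlt1b, Dynlt1c and Dynlt1f, are near-identical copies within a cluster on mm10 chromosome 17 from 6306340 to 6655900, and how reads that match several of them were counted is not given in the sources used here, so the single genes are uncertain. Dynlt1b had 32.1, 23.7 and 31.3 CPM/kb in SOHU and 18.3, 16.1 and 18.0 CPM/kb in naive libraries, a rise of 1.66-fold without overlap (0.73, SE 0.18, adjusted p = 0.0276). Dynlt1f had 4.80, 3.19 and 3.72 CPM/kb in SOHU and 2.04, 2.01 and 1.95 CPM/kb in naive libraries, a rise of 1.95-fold (0.96, SE 0.20, adjusted p = 0.0189). Dynlt1c had 1.85 ± 0.433 CPM/kb in SOHU and 1.12 ± 0.326 CPM/kb in naive libraries (0.73, adjusted p = 0.117), and Dynlt1a 0.909 ± 0.345 and 0.913 ± 0.0801 CPM/kb (SD, n = 3 each), in exons shared in part with the more abundant Tmem181a. Summed over the 4 copies, the level was 56.3, 38.5 and 47.4 CPM in SOHU and 28.6, 28.6 and 29.3 CPM in naive libraries. The sum does not depend on how reads were split between the copies. It can still miss or repeat reads that match several of them, if those were dropped or counted more than once. That sum was 1.64 times as high in SOHU and did not overlap (exact permutation p = 0.1).

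Dynlt3, of the same light chain family, had 102.1, 97.9 and 74.5 CPM/kb in SOHU and 72.3, 69.8 and 66.2 CPM/kb in naive libraries. Its SOHU libraries were all above the naive ones, replicate 3 only slightly, and it did not pass (0.40, SE 0.15, adjusted p = 0.0946). The LC8 chains Dynll1 and Dynll2, which also act outside dynein, overlapped between the groups. Dynll1 had 74.8, 76.5 and 77.1 CPM/kb in SOHU and 87.6, 71.1 and 85.1 CPM/kb in naive libraries (-0.09, SE 0.13), and Dynll2 19.2, 24.8 and 21.1 CPM/kb and 28.4, 24.2 and 22.8 CPM/kb (-0.21, SE 0.15). Their ratio did not separate the groups either (difference 0.12, exact permutation p = 0.5). The roadblock chain Dynlrb1 had 499.8, 508.4 and 542.7 CPM/kb in SOHU and 616.0, 489.7 and 553.7 CPM/kb in naive libraries, the highest level of the 57 genes and no separation (-0.10, SE 0.13, adjusted p = 0.659). Dynlrb2, a roadblock chain of ciliated cells, had 37, 27 and 12 reads in SOHU and 6, 4 and 12 in naive libraries (1.78, SE 0.62, adjusted p = 0.0814). SOHU replicate 3 and naive replicate 3 held equal numbers of its reads. Among the naive libraries only replicate 3 reached 10 reads, so Dynlrb2 met the read filter through the SOHU libraries.

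Dynactin had 1 gene of 6 lower. Dctn1, which encodes p150Glued, the arm that grips dynein and the microtubule, had 15.4, 12.3 and 14.3 CPM/kb in SOHU and 19.2, 19.5 and 19.0 CPM/kb in naive libraries. All SOHU libraries were below the tightly grouped naive libraries, a fall of 1.37-fold (-0.46, SE 0.13, adjusted p = 0.0444) that missed the threshold with the filter of 10 reads in 3 libraries (0.0501). The other 5 did not pass, with log2 fold changes of -0.42 to -0.09 and a class median of -0.20 (0.85 against ganglion cell markers). Dctn3, the most abundant, had 218.7, 208.0 and 212.4 CPM/kb in SOHU and 327.6, 244.2 and 283.9 CPM/kb in naive libraries, without overlap (-0.42, SE 0.14, adjusted p = 0.0686). Dctn5 had 85.7, 70.2 and 79.4 CPM/kb in SOHU and 95.0, 84.8 and 82.0 CPM/kb in naive libraries, and Dctn6 55.9, 64.9 and 67.0 CPM/kb and 71.5, 61.0 and 67.8 CPM/kb. Both belong to the pointed-end complex of dynactin, and both overlapped between the groups. Dctn2, or dynamitin, had 52.9 ± 7.30 CPM/kb in SOHU and 62.0 ± 4.13 CPM/kb in naive libraries, and Dctn4 4.29 ± 0.388 and 4.81 ± 0.118 CPM/kb (SD, n = 3 each).

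Dynein 2, the return motor of cilia, showed no call in its heavy chain or its light intermediate chain. Dync2h1 had 1.58, 2.47 and 2.05 CPM/kb in SOHU and 2.02, 2.19 and 1.91 CPM/kb in naive libraries (-0.01, SE 0.18). Dync2li1 had 26.7, 20.6 and 19.1 CPM/kb in SOHU and 17.0, 18.9 and 19.5 CPM/kb in naive libraries (0.26, SE 0.16, adjusted p = 0.304), with SOHU replicate 1 the highest. Among 23 genes of intraflagellar transport, the process these motors and Kif3 drive, Ift43 rose (0.49, SE 0.14, adjusted p = 0.0477; beside 8.02% of all genes) and no gene fell. Its median was -0.01, where all genes had 0.014, and the next smallest p-values were those of Ift22 (-0.34), Ift81 (-0.27) and Ift20 (-0.23).

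Adaptors that link motors to cargo were compared as well. Of 25 kinesin adaptors and regulators, 6 fell (beside 5.93% of all genes) and none rose, with a median of -0.31. They were Fez1 (1.77-fold, SE 0.15, adjusted p = 0.0132), a kinesin-1 adaptor, the JNK scaffolds Mapk8ip2 (1.71-fold) and Mapk8ip3 (1.51-fold), which couple kinesin-1 and its light chains to vesicles, the liprins Ppfia3 (1.61-fold) and Ppfia4 (1.90-fold), of synapse assembly and kinesin-3 transport, and Arl8b (1.34-fold), a lysosomal GTPase that recruits kinesins. The last 2 were named after their values were seen. Of 20 tested dynein adaptors and regulators, 2 fell and 1 rose (beside 5.93% lower and 8.02% higher of all genes), with a median of 0.03. Actr1b, which encodes a filament subunit of dynactin, fell 1.62-fold and Ndel1, a dynein regulator, 1.44-fold, while Nde1, its relative known from dividing cells, rose 1.80-fold (0.85, SE 0.21, adjusted p = 0.0302). Ninl had a log2 fold change of 1.23 and did not pass (adjusted p = 0.0577). Of 7 kinesin-related genes outside the symbol rule, 2 fell and none rose (beside 5.93% lower and 8.02% higher of all genes), with a median of 0.23. They were Kifc2, a neuronal kinesin that moves to minus ends, which fell 1.75-fold (-0.81, SE 0.17, adjusted p = 0.0194), and Kifap3. Kif1bp (-0.62), Stard9 (0.35) and the others did not pass.

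Motor genes were also set against the ganglion cell markers by scaling each library to those markers, so that a log2 fold change of 0 is the level of the markers. This changes only the library factors, so it shifted all genes by similar amounts. Klc1 went from -0.98 after TMM scaling to 0.05, and Kif5b from 0.09 to 1.14. The order of the genes is therefore much as after TMM scaling and is no separate result. With marker scaling the median of the 57 was 0.95, beside 1.06 for all genes, and single genes ran from -0.42 for Kif6 to 2.91 for Dynlrb2. Klc1 (0.05, SE 0.30), Klc2 (0.06, SE 0.36), Kif5a (0.10, SE 0.30), Dync1i1 (-0.07, SE 0.30) and Kif26b (0.07, SE 0.37) lay closest to the markers. Further off were Kif3a (0.40), Kif1a (0.43), Kif5c (0.52), Kif3c (0.52), Dync1li1 (0.53), Dctn1 (0.58) and Kif21a (0.58), none of which passed in that scaling (adjusted p-values 0.0721 to 0.211). Close to the median of all genes were Dync1i2 (1.00), Kif1b (1.08), Kif3b (1.09) and Kif5b (1.14). Genes above it included Dynlt3 (1.48), Dynlt1b (1.78), Dynlt1f (2.02), Kif19a (2.44) and Dynlrb2 (2.91), the last 2 of them scarce. The scaled values of Klc1, Klc2, Kif5a and Dync1i1 have standard errors of 0.30 to 0.36, so a difference from the markers of that size was not detectable with these libraries.

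Promoter windows are shown for Klc1, Dync1i1 and Kif5c, which fell and which the results turn on, and for Dync1i2, the relative of Dync1i1 that did not pass. They are RefSeq sequences on GRCm38.p6, 300 bases from 250 before to 50 after the start site, 5′ to 3′ on the strand of the gene, with the matches to 6 short motifs in capitals. Of the 57 genes, 43 had 50 windows in the table, and no window was there for Kif5a.
Klc1 (chr12:111758618-111758917, plus strand): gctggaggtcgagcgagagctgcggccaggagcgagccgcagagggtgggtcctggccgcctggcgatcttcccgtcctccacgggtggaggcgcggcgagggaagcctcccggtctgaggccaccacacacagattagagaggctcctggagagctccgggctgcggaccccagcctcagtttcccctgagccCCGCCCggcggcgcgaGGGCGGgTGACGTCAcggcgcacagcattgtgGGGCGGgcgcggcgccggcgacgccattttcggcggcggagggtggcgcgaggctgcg
Kif5c (chr2:49619036-49619335, plus strand): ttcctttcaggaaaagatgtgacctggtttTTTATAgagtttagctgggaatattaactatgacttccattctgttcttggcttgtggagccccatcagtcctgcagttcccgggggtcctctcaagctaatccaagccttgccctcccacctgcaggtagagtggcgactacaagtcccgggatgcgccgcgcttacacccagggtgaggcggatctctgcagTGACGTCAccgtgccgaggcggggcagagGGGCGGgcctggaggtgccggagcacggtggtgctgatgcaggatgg
Dync1i1 (chr6:5725389-5725688, plus strand): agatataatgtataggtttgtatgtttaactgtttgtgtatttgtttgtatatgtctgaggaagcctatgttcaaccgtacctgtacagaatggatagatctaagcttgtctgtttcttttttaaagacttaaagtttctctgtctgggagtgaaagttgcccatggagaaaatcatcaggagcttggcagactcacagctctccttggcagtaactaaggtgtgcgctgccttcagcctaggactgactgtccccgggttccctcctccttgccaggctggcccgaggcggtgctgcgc
Dync1i2 (chr2:71211456-71211755, plus strand): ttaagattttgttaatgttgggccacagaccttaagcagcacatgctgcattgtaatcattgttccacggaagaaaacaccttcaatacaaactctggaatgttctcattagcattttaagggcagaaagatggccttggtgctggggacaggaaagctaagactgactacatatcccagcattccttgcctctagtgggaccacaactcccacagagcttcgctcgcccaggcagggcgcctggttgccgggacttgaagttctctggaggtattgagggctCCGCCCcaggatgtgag
The capitals mark matches on either strand to 6 motifs. They were the GC box, spelled GGGCGG, the TATA box, spelled TATAAA, the CCAAT box, the E-box, spelled CACGTG, the full cyclic AMP response element, spelled TGACGTCA, and the core of the NRF1 motif, none of which overlap each other in these 4 windows. Klc1 held 3 GC boxes and the cyclic AMP element, and Kif5c held 1 GC box, 1 TATA box and the cyclic AMP element. In Dync1i1 no match to any of the 6 was found, and the Dync1i2 window shown held only 1 GC box. A second Dync1i2 window in the table, chr2:71211696-71211995, held 4 GC boxes and none of the other 5 motifs; the one printed is the nearer to the start of the gene in the count table. Over all 50 motor windows, GC boxes were in 36 (72.0%), beside 35.7% of all 32851 windows of that length, and the cyclic AMP element in 5 (10.0%), beside 1.79%. Of the 9 windows of genes that fell, 5 held a GC box, 2 the cyclic AMP element and 1 each CCAAT, TATA and the NRF1 core. In all windows those shares were 35.7, 1.79, 37.4, 13.6 and 0.971%, and with 9 windows no difference from them was tested. The Dctn1 windows among the 9 begin at 83179339 and 83185696, inside a gene that starts at 83165920 in the count table. The median GC content was 62.2% for motor windows, 59.3% for the windows of genes that fell and 52.7% for all windows. A match is a match of letters only, and no match says only that these letters are not in the window.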

How the data were processed

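The deposited files hold raw read counts per gene, 1 table of 6 libraries and 6 single files equal to its columns. Per the submitters' processing notes, the authors used bcl2fastq 2.17, Trim Galore, HISAT2, featureCounts and mm10; the annotation, strand setting and multimapping rule were not given in the sources used here. From these counts, genes were filtered with filterByExpr by group, scaled by TMM and tested with edgeR 4.0.16 (R 4.3.3; robust quasi-likelihood, group as the only term, Benjamini-Hochberg over 17687 genes, threshold 0.05), a procedure tested on simulated data. Fold changes are SOHU over naive. CPM values were divided by the exon length given with the deposited counts to compare genes. Ratios of related subunits, with 0.5 reads added, were compared by exact two-sided permutation over libraries. Per-library values are given for the members with the highest level or smallest p in each class and those of the pairs, and the 4 genes with the smallest p are named per adaptor list, with 2 more kinesin adaptors (Ppfia4 and Arl8b) added after values were seen. Alternatives were RLE scaling, scaling to 20 ganglion cell markers, other filters, DESeq2 1.42.0, limma-voom 3.58.1, a replicate block and leaving out each library. The members and lists were chosen with earlier results of these data known, and the promoters shown after values were seen.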

Additional observations from a re-analysis of the deposited data

How the results depend on the processing

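Scaling to the ganglion cell markers moved the most values, since by construction it sets the markers level: 12004 genes were called higher and 2 lower, and 38 members higher and 0 lower. Class medians became 0.83 for dynein 1, 0.85 for dynactin, 1.17 for dynein 2, 1.48 for dynein light chains, 0.52 for kinesin-1 heavy chains, 0.49 for light chains, 0.58 for kinesin-2, 1.03 for kinesin-3, 1.30 for kinesin-4, 0.89 for kinesin-13, 1.31 for mitotic and 0.48 for other kinesins. The log2 fold changes that turned positive there were Dync1h1 0.83, Dync1i2 1.00, Dync1li1 0.53, Dync1li2 0.94, Dctn1 0.58, Dctn2 0.82, Dctn3 0.65, Dctn4 0.89, Dctn5 0.90, Dctn6 0.95, Dync2h1 1.03, Dynll1 0.97, Dynll2 0.85, Dynlrb1 0.96, Dynlt1a 1.06, Klc1 0.05, Klc2 0.06, Klc3 0.91, Klc4 0.93, Kif5a 0.10, Kif5c 0.52, Kif24 0.88, Kif2a 0.90, Kif17 0.65, Kif3a 0.40, Kif3c 0.52, Kif13a 0.97, Kif13b 0.98, Kif1a 0.43, Kif21a 0.58, Kif27 1.04, Kif20a 0.21, Kif22 0.83, Kif26a 0.48 and Kif26b 0.07. Genes called lower numbered 1675 with no filter and 1751 in DESeq2. Kif3b turned to -0.02 with no filter, and Dync2h1 and Dynlt1a to 0.01 each with the filter of 10 reads in 3 libraries. With a replicate block, 5 members were lower. There Kif5c, Kif3c, Kif21a, Dync1li1 and Dctn1 missed the threshold in edgeR (adjusted p-values 0.056 to 0.0857). Deviations from the group mean correlated at 0.163, 0.251 and 0.00399 between same-numbered libraries, and at -0.28 to 0.0946 between differently numbered ones. Nothing in the labels says that the numbers pair the libraries. Leaving out 1 library gave 0 to 2051 genes higher and 0 to 1845 lower, 0 to 4 members higher and 0 to 11 lower. Medians then ran from -0.25 to -0.12 for dynein 1, -0.59 to -0.26 for kinesin-2, -0.69 to -0.20 for other kinesins, 0.09 to 0.40 for mitotic kinesins, 0.16 to 0.36 for kinesin-4, -0.28 to -0.11 for dynactin, -0.22 to -0.04 for kinesin-13, 0.08 to 0.19 for dynein 2, -0.04 to 0.09 for kinesin-3, 0.31 to 0.54 for dynein light chains, -0.65 to -0.39 for light chains and -0.60 to -0.46 for kinesin-1 heavy chains. Signs turned in some omissions for Dync1i2 (-0.15 to 0.02), Dync2h1 (-0.16 to 0.14), Dynlt1a (-0.31 to 0.26), Klc3 (-0.20 to 0.04), Klc4 (-0.30 to 0.02), Kif5b (-0.01 to 0.16), Kif24 (-0.30 to 0.08), Kif3b (-0.07 to 0.11), Kif27 (-0.21 to 0.17), Kif11 (-0.10 to 0.39) and Kif9 (-0.06 to 0.63), none of which was called. The differences of the ratios of Kif3c to Kif3a (0.00 to 0.19), Kif13a to Kif13b (-0.04 to 0.07) and Klc1 to Klc2 (-0.21 to 0.11) also moved, and the cause was not tested. With 3 libraries a group and a biological coefficient of variation of 22.3%, small differences and members under 1 CPM/kb are weakly resolved.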
